A study of Mus musculus with 9 samples.

Results

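The 9 regulators followed here are genes studied together for their roles in blood stem and progenitor cells, namely the homeobox genes Hoxa5, Hoxa7, Hoxa9, Hoxa10 and Hoxb4, the homeobox cofactor Meis1, and the transcription factor genes Mecom, Myb and Hhex. Every probe whose accession belonged to 1 of these 9 genes was taken, which gave 13 probes of 41174 on the array, for 9 of the 16535 genes named. Meis1, Mecom, Myb and Hhex had 2 probes each and the HOX genes 1 each. They were measured in FDCPmix, a self-renewing line of mouse blood progenitors that can enter several lineages. A lentiviral vector that also marks cells with GFP delivered a short hairpin RNA, which triggers degradation of the matching transcript. The hairpin was aimed at Gata2 in the group Gata2 KD and at Spi1, commonly named Pu.1, in the group Pu.1 KD, and the EV group received the vector with no hairpin. All 3 groups were infected under self-renewal conditions, and RNA came from live cells that a sorter had picked for GFP 5 days after infection. There were 3 single-color Agilent arrays per group and 9 in all, from 1 cell line.

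HOX proteins bind DNA through a homeodomain and gain affinity and specificity by pairing with TALE homeodomain proteins of the PBX and MEIS families. Hoxa9 and Meis1 are expressed in hematopoietic stem cells and early progenitors, decline as blood cells mature, and together transform myeloid progenitors when kept on. Mecom encodes EVI1 and its longer MDS1-EVI1 form, zinc finger factors needed to maintain stem cells, Myb encodes a factor required for definitive hematopoiesis and for the growth of immature myeloid cells, and Hhex encodes a homeobox factor of early blood, endothelial and lymphoid precursors.

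Between the knockdowns 1 of the 9 genes was called, that is, had an adjusted p under 0.05, where 9.63% of all tested probes were called. Meis1 was lower in Gata2 KD than in EV and than in Pu.1 KD by both of its probes. None of the other 8 genes was called in either knockdown or between them in the main fit, which left out the slide of each array. With slide as a block the dimmer Hhex probe was called between the knockdowns (limma, adjusted p 0.0454). The tested probes of Mecom, Myb and Hhex differed from EV by at most 1.46-fold. Of the 5 HOX probes 4 were dim. Hoxa5 was well above background on 9 of 9 arrays, Hoxa7 on 8, Hoxa9 on 7 and Hoxa10 on 5. For Hoxa7, Hoxa9 and Hoxa10 the 95% interval of the change reached past 2-fold both in Gata2 KD and between the knockdowns.

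Levels are given on a log2 scale as intensity over the array's own 75th percentile, so a difference of 1 is 2-fold, and group values are mean ± SD (n = 3). On each array 80.4% to 89.6% of the spots were well above background and 0 were saturated. The arrays came from 3 slides, each with 1 array of each group. EV replicate 3 was least like the others, with a mean correlation of 0.960 across probes where the remaining arrays had at least 0.971. Nothing in the labels says that replicates came from separate cultures beyond their being triplicate samples, so p values measure the spread between these samples. The targeted genes moved as labeled, Gata2 by -1.61 in Gata2 KD (adjusted p 0.00414) and Spi1 by -1.73 in Pu.1 KD (adjusted p 0.00178), and Spi1 was higher in Gata2 KD by 1.39 (adjusted p 0.0012). All 6 progenitor markers (Ptprc, Kit, Cd34, Gata2, Csf2rb and Il3ra) were well above background on every array, but some changed. In Gata2 KD 2 were called higher and 1 lower, and in Pu.1 KD 1 higher and 1 lower. Of all tested probes 5.20% and 2.70% were called in these comparisons.

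Meis1 and Mecom are the members whose start sites are shown, Meis1 because it alone was called in the main fit and Mecom because its 2 probes belong to different transcripts. The windows run from 250 bases before to 50 bases after the start site on the strand of the gene, were taken from RefSeq (GRCm38.p6), and lie at chr11:19018920-19019219 (minus strand) for Meis1, chr3:30509710-30510009 (minus strand) for the distal start of Mecom and chr3:30013155-30013454 (minus strand) for its proximal start. Capitals mark matches to the searched motifs.
Meis1: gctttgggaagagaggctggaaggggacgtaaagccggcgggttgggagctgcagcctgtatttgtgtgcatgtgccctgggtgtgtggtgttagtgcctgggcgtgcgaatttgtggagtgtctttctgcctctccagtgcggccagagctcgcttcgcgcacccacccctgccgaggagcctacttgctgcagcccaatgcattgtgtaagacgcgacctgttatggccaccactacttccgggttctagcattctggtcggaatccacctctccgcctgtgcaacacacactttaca
Mecom, distal start: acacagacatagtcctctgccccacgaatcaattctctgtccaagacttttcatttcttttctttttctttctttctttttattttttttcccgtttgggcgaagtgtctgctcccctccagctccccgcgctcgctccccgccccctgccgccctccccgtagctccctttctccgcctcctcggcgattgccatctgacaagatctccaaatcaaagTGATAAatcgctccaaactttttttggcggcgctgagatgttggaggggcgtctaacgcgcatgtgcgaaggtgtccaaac
Mecom, proximal start: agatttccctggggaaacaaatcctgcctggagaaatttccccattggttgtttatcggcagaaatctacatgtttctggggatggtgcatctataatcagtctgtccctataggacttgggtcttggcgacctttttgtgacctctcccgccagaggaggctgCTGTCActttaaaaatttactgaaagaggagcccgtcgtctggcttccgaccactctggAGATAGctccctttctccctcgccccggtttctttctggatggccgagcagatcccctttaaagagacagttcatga
The motifs searched on both strands were a GATA motif spelled AGATAAG, a set of short GATA motifs, of which AGATAA lies within the longer one, while AGATAG is a form that ends differently, with TGATAA as well as the form TGATAG starting differently, a PU.1 motif spelled GGAAGTG, a MEIS motif spelled TGACAG and a PBX-HOX motif spelled TGATTNAT. The Meis1 window held none of them. The distal Mecom window held TGATAA with its first letter at position -31 from the start site, and the proximal window held AGATAG at position -27 and, on the opposite strand, the MEIS motif at position -86. Among the other members a short GATA motif lay in the windows of Hoxa7, Hoxa9 and 1 of the 2 Hoxa10 starts. Of 32851 windows of the same length, 29.8% held a short GATA motif, 3.04% the longer GATA motif, 11% the PU.1 motif, 19.2% the MEIS motif and 3.22% the PBX-HOX motif. A match describes the letters of the window and no binding was measured on these arrays.

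Of the 13 probes, 12 were tested, and a Mecom probe was well above background on 0 of 9 arrays. In Gata2 KD against EV 2 of the 12 were called, both of them lower and both of Meis1, where 5.20% of all 36585 tested probes were called (2.96% higher and 2.24% lower). In Pu.1 KD against EV 0 of the 12 were called by limma, and 0 had an unadjusted p under 0.05, where 2.70% of all probes were called (1.27% higher and 1.42% lower). Between the knockdowns 2 of 12 were called, again the 2 Meis1 probes and both lower in Gata2 KD, where 9.63% of all probes were called (4.86% higher and 4.77% lower). The F test over the 3 groups called the same 2 probes, where it called 9.01% of all probes. Scaling each array to its median moved the split of all called probes in Gata2 KD from 1084 higher and 818 lower to 839 higher and 364 lower. The median change of the 12 probes was -0.13 in Gata2 KD, -0.16 in Pu.1 KD and 0.13 between the knockdowns, and that of all tested probes was -0.09, -0.04 and -0.04. Counted by genes, the brightest probe standing for a gene, the medians of the 9 were -0.14, -0.18 and 0.08.

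**Figure D1:**
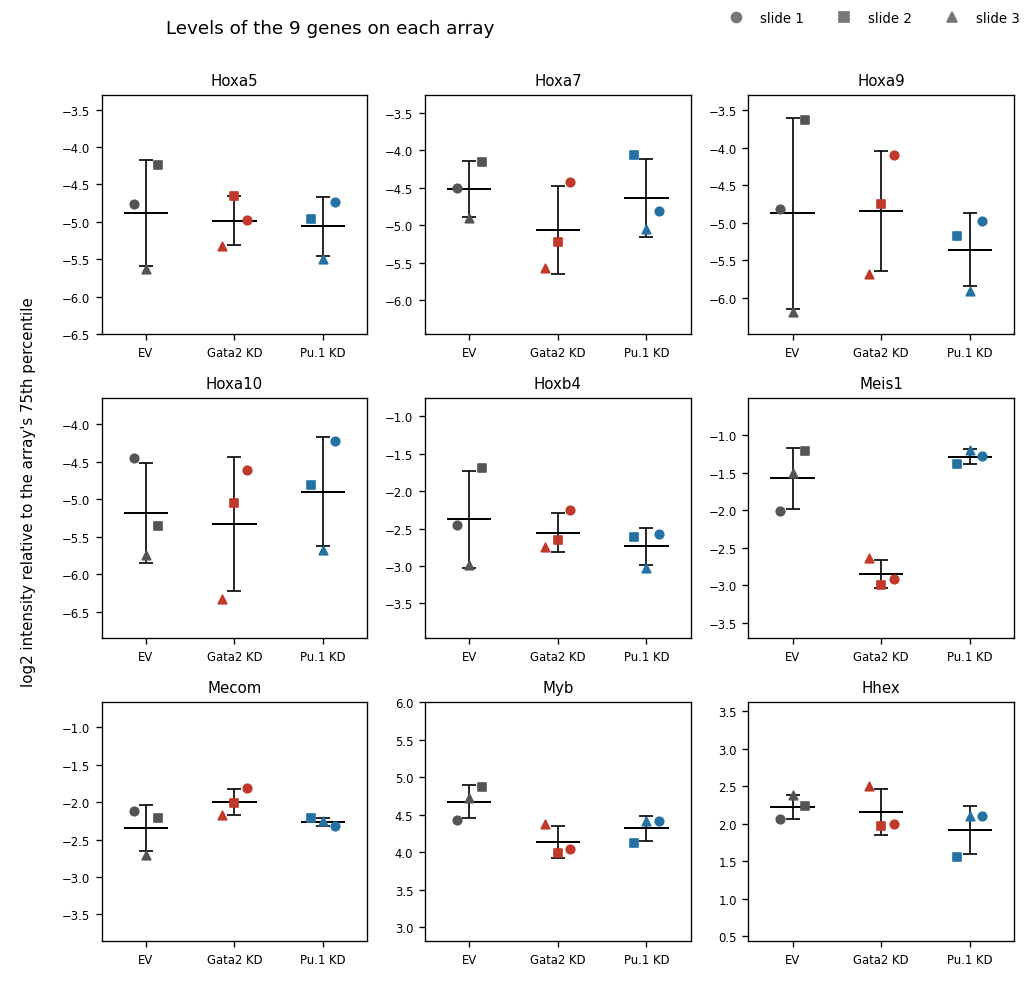
Level of the brightest probe of each of the 9 genes on each array, in log2 units from the array's 75th percentile (vertical axis, each panel with its own range of at least 3.2 units), by group (horizontal axis). Points are single arrays, their shape gives the slide, and the bars are the mean and SD of 3 arrays. Meis1 is the gene whose Gata2 KD arrays, at -3.00 to -2.65, lie furthest below the EV arrays, and in the 5 HOX panels the slide 3 array is the lowest of its group in 15 of 15 cases.

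Meis1, the TALE cofactor, fell in Gata2 KD. Its brighter probe (A_52_P670612) read -2.02, -1.51 and -1.21 in the EV arrays, -2.65, -3.00 and -2.91 in the Gata2 KD arrays and -1.39, -1.20 and -1.28 in the Pu.1 KD arrays. All 3 Gata2 KD arrays lay below all EV and all Pu.1 KD arrays, whereas the Pu.1 KD and EV arrays overlapped. The mean was -1.58 ± 0.41 in EV, -2.85 ± 0.19 in Gata2 KD and -1.29 ± 0.10 in Pu.1 KD. The change in Gata2 KD was -1.28 with an SE of 0.21 (2.42-fold lower, 95% interval 1.72 to 3.41-fold, adjusted p 0.0103), and on each of the 3 slides the Gata2 KD array was the lower one, by log2 differences from -1.80 to -0.90.

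The other Meis1 probe (A_52_P26195), of the same RefSeq transcript, fell as well. It read -1.84, -1.42 and -1.52 in EV, -2.76, -3.04 and -2.83 in Gata2 KD and -1.34, -1.18 and -1.32 in Pu.1 KD, without overlap between any of the 3 groups. Its change in Gata2 KD was -1.28 with an SE of 0.16 (2.43-fold lower, 95% interval 1.90 to 3.12-fold, adjusted p 0.002). Groups without overlap were found for 3 of the 12 probes in this comparison, the 2 of Meis1 and 1 of Myb, where 18.6% of all probes did not overlap. The probe sequences were not used here, so whether the 2 probes share bases is unknown, and they are not independent replicates.

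In Pu.1 KD Meis1 was not called. Its brighter probe changed by 0.29 (95% interval -0.20 to 0.78, adjusted p 0.776) and the other by 0.31 (95% interval -0.05 to 0.67, adjusted p 0.515). The direct test between the knockdowns found Meis1 lower in Gata2 KD by -1.57 with an SE of 0.21 (2.96-fold, adjusted p 0.00205) and by -1.59 with an SE of 0.16 (3.02-fold, adjusted p 0.000339). This test shares the Gata2 KD arrays with the comparison against EV. The call of the brighter probe against EV was lost without Gata2 KD replicate 2 (adjusted p 0.0581) and with only the EV and Gata2 KD arrays in the fit (0.056). The other probe passed under all 20 alternatives tried, with adjusted p values from 0.00106 to 0.0239. The size of the fall depended on the processing. Under the alternatives the change against EV ran from -1.41 to -0.80 for this probe and from -1.50 to -0.79 for the brighter one.

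Markers of myeloid cells also changed in Gata2 KD, where 5.20% of all tested probes were called. Neutrophil granule and most monocyte markers rose where Meis1 fell, and most mast cell and basophil markers fell. Of the 11 neutrophil granule markers all 11 were higher, and their summed level, on the log2 scale, was 7.91 to 8.08 in EV, 10.2 to 10.4 in Gata2 KD and 6.73 to 6.96 in Pu.1 KD. Of 7 monocyte and macrophage markers 6 were higher, with summed levels of 2.08 to 2.30 in EV, 5.28 to 5.40 in Gata2 KD and 1.12 to 1.33 in Pu.1 KD. Of 7 mast cell and basophil markers 5 were lower, with summed levels of 6.79 to 7.01 in EV, 4.50 to 4.61 in Gata2 KD and 6.15 to 6.31 in Pu.1 KD. Every neutrophil granule and mast cell marker was above background on every array of every group, and of the monocyte markers Mrc1 was above background on 0 arrays of EV and of Pu.1 KD. In bulk RNA of sorted cells, fewer cells that express Meis1 and less Meis1 RNA per cell cannot be told apart, and the part of these cell types in the change of Meis1 was not tested.

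The genes whose levels followed Meis1 most closely over the 9 arrays, among 14465 genes well above background on every array, were Tdrd3 (Pearson r 0.992) and Cltrn (0.991). These correlations describe 9 arrays in 3 groups that share slides.

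**Figure D2:**
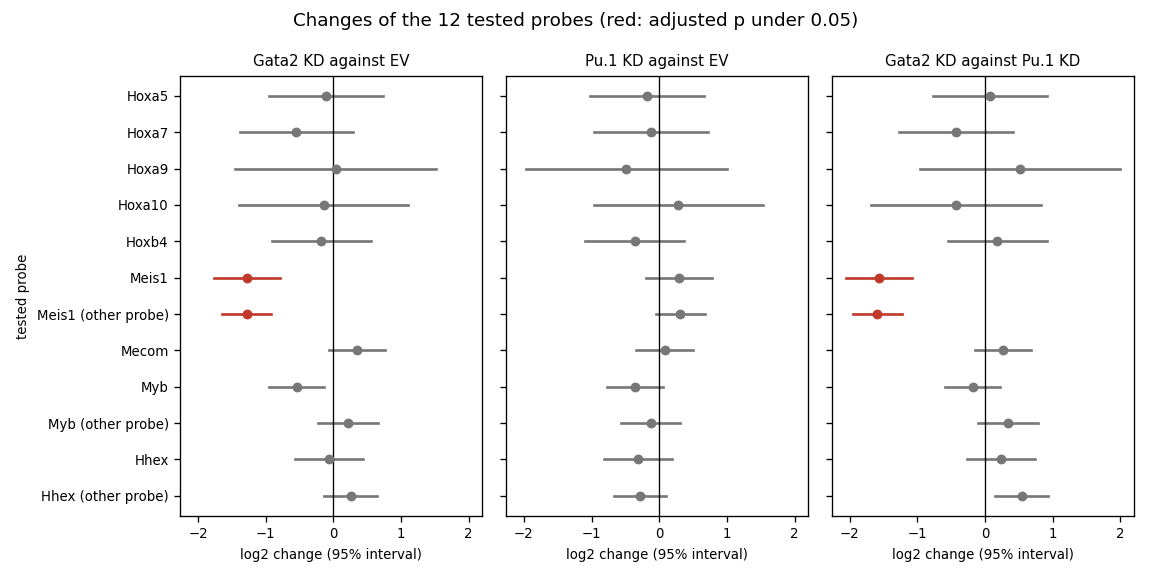
Log2 change (horizontal axis) of the 12 tested probes with its 95% interval, for each knockdown against EV and for the 2 knockdowns against each other. Red marks an adjusted p under 0.05, which is seen for the 2 Meis1 probes in the left and right panels, at -1.28 and -1.28 and at -1.57 and -1.59, and for no probe in the middle panel.

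The HOX genes showed no change that passed the test, and most of them were too dim for a firm statement. Hoxa9 encodes the A-cluster protein that pairs with MEIS1 in myeloid progenitors. Its probe (A_51_P117924) read -4.81, -6.18 and -3.63 in EV, -5.68, -4.75 and -4.09 in Gata2 KD and -5.18, -5.91 and -4.98 in Pu.1 KD, and it was well above background on 7 of 9 arrays. The 3 EV arrays alone spanned the range of both knockdowns. The change was 0.03 in Gata2 KD (95% interval -1.45 to 1.51) and -0.48 in Pu.1 KD (95% interval -1.97 to 1.00), which leaves room for a change of 2-fold in either direction in Gata2 KD.

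Hoxa10, which lies next to Hoxa9 and is expressed in early myeloid cells, was well above background on 5 of 9 arrays, of which 1 was an EV array. It changed by -0.14 in Gata2 KD (95% interval -1.39 to 1.11) and by 0.28 in Pu.1 KD (95% interval -0.97 to 1.53). Hoxa7 (8 of 9 arrays) changed by -0.55 in Gata2 KD (95% interval -1.39 to 0.29, adjusted p 0.65), with arrays at -5.57, -5.22 and -4.42 against -4.50, -4.91 and -4.15 in EV. These groups overlapped, and the difference had an SE of 0.37. The SD was 0.59 among the Gata2 KD arrays and 0.38 among the EV arrays. Hoxa5 (9 of 9 arrays) changed by -0.11 in Gata2 KD (95% interval -0.95 to 0.73) and by -0.18 in Pu.1 KD (95% interval -1.02 to 0.66).

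Hoxb4, whose protein expands stem cells when overexpressed, read further from background, at -2.38 ± 0.65 in EV, -2.55 ± 0.26 in Gata2 KD and -2.74 ± 0.25 in Pu.1 KD. It changed by -0.18 in Gata2 KD (95% interval -0.91 to 0.55) and by -0.36 in Pu.1 KD (95% interval -1.09 to 0.37). Each change had an SE of 0.32, and neither was called. Across the 5 HOX probes the lowest adjusted p was 0.65 in Gata2 KD, 0.857 in Pu.1 KD and 0.764 between the knockdowns. All 3 EV arrays of Hoxb4 were well above background, and they ran from -2.98 in replicate 2 to -1.69 in replicate 3.

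The levels of the HOX probes followed the slide. In 15 of 15 cases (5 probes in 3 groups) the array from slide 3 was the lowest of its group, whereas for the 7 tested probes of Meis1, Mecom, Myb and Hhex it was the lowest in 6 of 21 cases. Slide 3 also held the arrays with the fewest spots well above background, 80.4% to 84% against 85.6% to 89.6% on the others. The same order, slide 3 lowest in all 3 groups, was found for 33.4% of all tested probes and for 48.6% of the 7680 probes with a mean level under -4. The slide was singled out after these values were seen. With slide as a block none of the 5 HOX probes was called, the lowest adjusted p being 0.31 in Gata2 KD, 0.425 in Pu.1 KD and 0.174 between the knockdowns.

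Other HOX genes were not called either. Of 34 listed genes of the 4 clusters, 32 had a named probe and 29 were tested, and 18 of these were well above background on all 9 arrays. None was called in any of the 3 comparisons by limma, and 0 had an unadjusted p under 0.05. Their changes lay between -0.88 and 0.24 in Gata2 KD, with a median of -0.16, and between -1.71 and 0.28 in Pu.1 KD, with a median of -0.16. Between the knockdowns they lay between -0.54 and 1.25, with a median of 0.02 and a lowest adjusted p of 0.795.

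Mecom was read by 2 probes for different transcripts. The probe for NM_007963 (A_51_P482148) was well above background on 9 of 9 arrays and read -2.12, -2.70 and -2.22 in EV, -2.17, -2.01 and -1.82 in Gata2 KD and -2.22, -2.26 and -2.33 in Pu.1 KD. Its change of 0.35 in Gata2 KD was not called (95% interval -0.07 to 0.77, adjusted p 0.478), and the EV and Gata2 KD arrays overlapped. In Pu.1 KD the change was 0.08 (95% interval -0.34 to 0.50). The Gata2 KD arrays lay above all Pu.1 KD arrays, by 0.27 on average (adjusted p 0.604), where 25.8% of all probes did not overlap between the knockdowns. The probe for NM_021442 (A_51_P437349) was not above background on any of the 9 and no fold is given for it. The RefSeq table does not tie these transcripts to the 2 start sites shown above.

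Myb gave 2 probes that differed in sign in Gata2 KD. The brighter one (A_51_P375543) read 4.44, 4.73 and 4.87 in EV, 4.38, 3.99 and 4.04 in Gata2 KD and 4.12, 4.42 and 4.42 in Pu.1 KD. All 3 arrays of each knockdown lay below all 3 EV arrays, the closest pairs being 4.38 against 4.44 and 4.42 against 4.44. The change of -0.54 in Gata2 KD (1.46-fold lower, 95% interval -0.95 to -0.13) had an unadjusted p of 0.0153 and an adjusted p of 0.167, and it passed the threshold only with the deposited log2 values (-0.52, adjusted p 0.0259) among 20 alternatives. In Pu.1 KD the change was -0.36 (95% interval -0.77 to 0.05, adjusted p 0.502). It was 1 of 2 probes whose groups did not overlap in that comparison, the other being the second Meis1 probe, where 17.3% of all probes did not overlap.

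The other Myb probe (A_52_P444839) changed by 0.21 in Gata2 KD (95% interval -0.23 to 0.66, adjusted p 0.816) and by -0.13 in Pu.1 KD (95% interval -0.57 to 0.31). Its arrays read -0.50, -0.75 and -0.61 in EV and -0.74, -0.19 and -0.29 in Gata2 KD, and these groups overlapped. The 2 probes therefore gave no single direction for Myb in Gata2 KD. The MYB relatives Mybl1 (-0.90, adjusted p 0.55) and Mybl2 (-0.04, adjusted p 0.981) and the coactivator genes Ep300 and Crebbp were not called in Gata2 KD, nor in the other comparisons, and 0 of the 4 had an unadjusted p under 0.05 in any.

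Hhex was read by 2 probes, neither called against EV. The brighter one (A_52_P528600) read 2.07, 2.39 and 2.23 in EV, 2.51, 1.97 and 1.996 in Gata2 KD and 1.55, 2.11 and 2.10 in Pu.1 KD. These arrays overlapped in each comparison, with changes of -0.07 in Gata2 KD (95% interval -0.57 to 0.43) and -0.31 in Pu.1 KD (95% interval -0.81 to 0.19). The other probe (A_51_P265824) read -2.33, -2.21 and -2.19 in Gata2 KD and -2.71, -2.79 and -2.85 in Pu.1 KD. These groups did not overlap, and the difference of 0.54 (95% interval 0.15 to 0.93) had an adjusted p of 0.0995. It passed the threshold with slide as a block (adjusted p 0.0454) and without EV replicate 3 (0.0292), while the brighter probe differed by 0.24 between the knockdowns (adjusted p 0.811).

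The intervals set what these 9 arrays could show. In Gata2 KD the 95% interval lay within a 2-fold change in either direction for 7 of 12 probes, in Pu.1 KD for 8 and between the knockdowns for 7. In Pu.1 KD they included both Meis1 probes and the probes of Mecom, Myb and Hhex. Hoxa9, with an SE of 0.65, was the least precise.

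**Figure D3:**
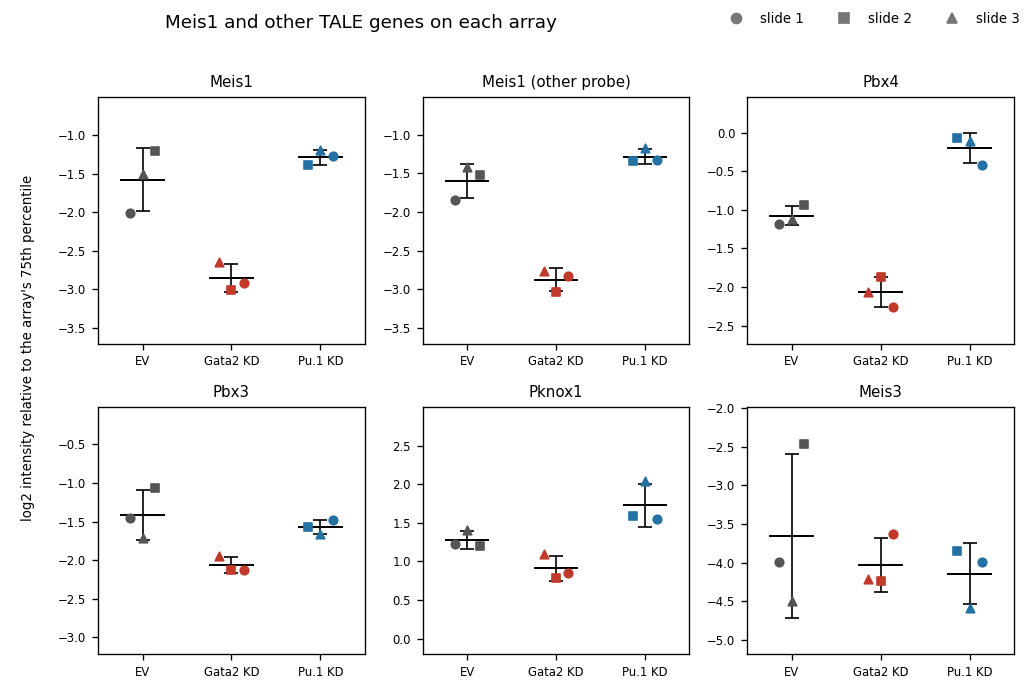
Levels of both Meis1 probes and of the TALE genes Pbx4, Pbx3, Pknox1 and Meis3 on each array, in log2 units from the array's 75th percentile (vertical axis), by group (horizontal axis). Point shapes give the slide, and the bars are the mean and SD of 3 arrays. Pbx4 runs from -2.07 ± 0.19 in Gata2 KD through -1.07 ± 0.13 in EV to -0.20 ± 0.19 in Pu.1 KD with no overlap between groups.

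Among the TALE partners of HOX proteins 9 of 10 listed genes were tested. In Gata2 KD 0 were called higher and 1 lower, in Pu.1 KD 1 higher and 0 lower, and between the knockdowns 0 higher and 2 lower. Of all tested probes 5.20%, 2.70% and 9.63% were called in these comparisons, so counts this small in 9 genes say little about the list. Pbx4, a PBX cofactor gene, fell in Gata2 KD by 0.99 with an SE of 0.16 (adjusted p 0.00941) and rose in Pu.1 KD by 0.87 (adjusted p 0.0302), a difference between the knockdowns of -1.87 (adjusted p 0.000175). Its arrays read -1.18, -1.11 and -0.93 in EV, -2.07, -1.88 and -2.26 in Gata2 KD and -0.07, -0.11 and -0.42 in Pu.1 KD. The 3 groups were fully apart. The rise in Pu.1 KD was lost under 11 of 20 alternatives, among them the omission of any array but EV replicate 3, with adjusted p values up to 0.143, and the fall in Gata2 KD was lost only with scaling to the median (0.0535).

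Pknox1, another TALE cofactor gene, differed between the knockdowns, with Gata2 KD lower (-0.82, adjusted p 0.0214), and it was not called against EV, where the changes were -0.37 and 0.45. That call was lost under 5 of 20 alternatives, among them leaving out Gata2 KD replicate 2, Gata2 KD replicate 3 or Pu.1 KD replicate 2. Pbx3, whose product often accompanies HOXA9 and MEIS1, changed by -0.65 in Gata2 KD (adjusted p 0.0911), with all 3 arrays below EV. The relatives of Meis1 itself were dim. Meis2 (-0.36, 5 of 9 arrays above background) and Meis3 (-0.37, 9 of 9 arrays) were not called in Gata2 KD, with SEs of 0.69 and 0.49, and the median change of the 9 TALE genes was -0.36 in Gata2 KD and -0.16 in Pu.1 KD.

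**Figure D4:**
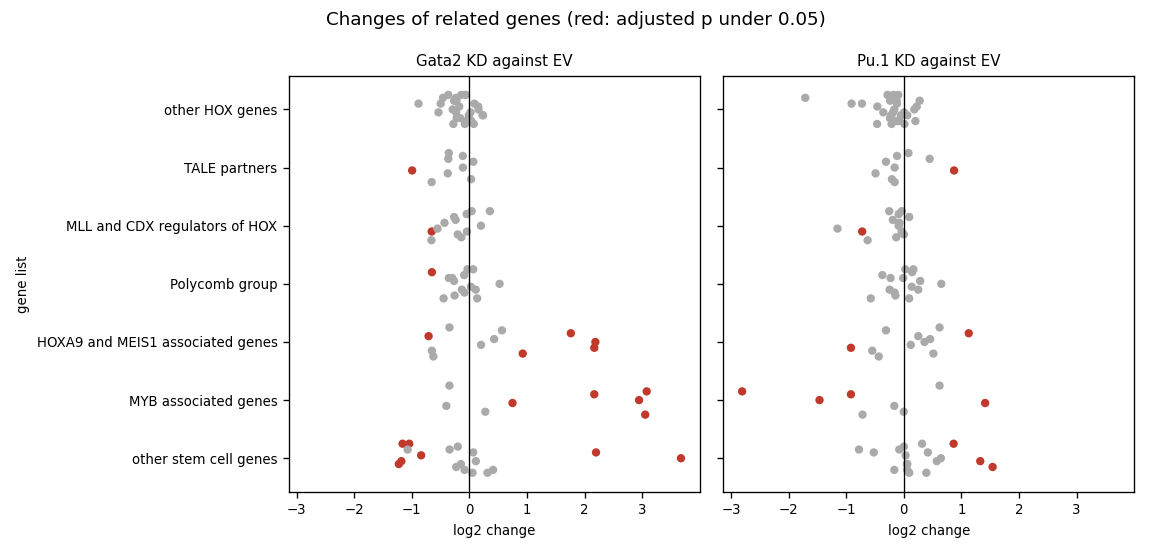
Log2 change (horizontal axis) of each tested gene of 7 related lists (vertical axis) for each knockdown against EV. Each point is a gene, points are spread vertically within a list for legibility only, and red marks an adjusted p under 0.05. The 29 other HOX genes hold no red point in either panel, and the genes associated with HOXA9, MEIS1 and MYB hold rises in Gata2 KD up to 3.08.

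Genes listed from general knowledge as associated with HOXA9 and MEIS1 changed in both directions. Of 11 tested, 4 were higher and 1 lower in Gata2 KD, where 5.20% of all probes were called, with a median change of 0.43. Cd34, a progenitor surface glycoprotein gene, rose by 2.17 (adjusted p 0.000147), Mef2c, a MADS-box factor gene, by 2.19 (adjusted p 0.0184) and Id2, an inhibitor of E proteins, by 1.76 (adjusted p 0.00039). Lmo2 rose by 0.93 (adjusted p 0.0342), a call lost under 9 of 20 alternatives. Cdk6, a cell cycle kinase gene, fell by 0.71 (adjusted p 0.0177). In Pu.1 KD Id2 rose by 1.13 (adjusted p 0.0106) and Cd34 fell by 0.92 (adjusted p 0.0263). Some of these calls depended on single arrays. The call of Mef2c was lost without any of EV replicates 1 and 2 and Gata2 KD replicates 1, 2 and 3 (adjusted p up to 0.0808), that of Cdk6 under 7 of 20 alternatives (up to 0.228), among them leaving out EV replicate 2 or 3 or Gata2 KD replicate 2 or 3. In Pu.1 KD that of Cd34 was lost under 10 (up to 0.198), with each omission of a Pu.1 KD array or of replicate 2 or 3 of another group included, and that of Id2 under 4 (up to 0.0684), among them leaving out Pu.1 KD replicate 3.

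Of 8 genes associated with MYB, 5 were higher and 0 lower in Gata2 KD, and 1 was higher and 3 lower in Pu.1 KD. Of all tested probes 5.20% were called in Gata2 KD and 2.70% in Pu.1 KD. The largest rises were those of the primary granule genes Mpo (3.08), Elane (3.05) and Prtn3 (2.95), which are also on the neutrophil granule list. In Pu.1 KD Mpo fell by 2.81 (adjusted p 0.000213) and Prtn3 by 1.46 (adjusted p 0.00376), while Kit, the stem cell factor receptor gene, rose by 1.41 (adjusted p 0.00332). Kit also rose in Gata2 KD, by 0.75 (adjusted p 0.0241), a call lost under 9 of 20 alternatives. Myb itself was not called in either knockdown, its brighter probe changing by -0.54 and -0.36.

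Further genes used as marks of stem cells also split. Of 18 tested, 2 were higher and 5 lower in Gata2 KD, 3 higher and 0 lower in Pu.1 KD, and 2 higher and 6 lower in the direct comparison. The shares called over all tested probes were 5.20%, 2.70% and 9.63%. Ly6a, which encodes the SCA-1 antigen, rose by 3.67 in Gata2 KD (adjusted p 7.49e-06) and Procr, the endothelial protein C receptor gene, by 2.20 (adjusted p 0.00265), a change that was 1.19 with normexp background correction and 1.47 in the deposited log2 values and was called in both. Nr4a2, an orphan nuclear receptor gene, fell by 1.22 (adjusted p 0.00181) and Slamf1, which encodes CD150, by 1.18 (adjusted p 0.00385). The other falls in Gata2 KD, those of Mycn, a MYC family factor gene (-1.16), Ctnnal1 (-1.04) and Msi2, an RNA-binding protein gene (-0.84), were lost under 9, 4 and 12 of 20 alternatives (adjusted p up to 0.145, 0.113 and 0.274), and all of them without Gata2 KD replicate 2 or replicate 3. Slamf1 rose in Pu.1 KD by 1.33 (adjusted p 0.00621), and the rise of Ctnnal1 there by 0.87 (adjusted p 0.0469) was lost under 12 alternatives (up to 0.252), among them leaving out any array except Gata2 KD replicate 1. For Slamf1, as for Pbx4, the calls against EV were of opposite sign in the 2 knockdowns, and these comparisons share the EV arrays. The median change of the 18 genes was -0.17 in Gata2 KD and 0.08 in Pu.1 KD.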

How the data were processed

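Total RNA (150 ng per sample) was labeled with Cy3 and hybridized to 1-color arrays whose design is annotated to mm8. The authors deposited, per array, intensity values from Agilent Feature Extraction 10.1.1.1 (processed signal: background-subtracted within the array, not normalized between arrays) and 1 table of log2 values, which the authors normalized by a method not named in the sources used here and whose correlation with the log2 median signal (0.9972 or above) exceeded that with the processed signal (0.9801 or below). Here log2 processed signal was used, with control spots left out, outlier-flagged spots missing and spots of a probe averaged, minus the array's 75th percentile. Probes well above background on at least 3 arrays and with 2 or more values per group were tested (36585 of 41174) with limma 3.58.1 in R 4.3.3 (group means over 9 arrays without slide, eBayes, two-sided, Benjamini-Hochberg over all tested probes, threshold 0.05). The code was first run on simulated data with independent noise and no slide effect. That check cannot give the error rate for arrays that differ by slide, as these do. The number of arrays limits the precision.

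Probes were named by accession through a RefSeq table of GRCm38.p6 (23374 probes, 16535 genes). Members, lists and tests were chosen with earlier results of these data known, and lists come from general knowledge. All member probes are given, the brightest standing for a gene. Of each list up to 4 called genes with the largest changes and relatives of members were to be named, and of the genes most like Meis1 the top 2. Not all named by the rule are used, and some genes are named beyond it, among them Cdk6 and Msi2. The probes whose groups did not overlap were pointed out after their values were seen. Normexp was run on median in place of mean signals, which the files used here do not hold. The other 19 of 20 alternatives were as planned.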

Additional observations from a re-analysis of the deposited data

How the results depend on the processing

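Of 711 values of the 36 member probe comparisons under the alternatives, 706 stayed on their side of the threshold, and the other 5 are those of Meis1, Myb and Hhex given above. No called value changed its direction. The count of member probes called in Gata2 KD was 1 in place of 2 with only the groups compared, and 1 to 2 when single arrays were left out, the 1 without Gata2 KD replicate 2. Between the knockdowns it was 2 to 3 when single arrays were left out, in Pu.1 KD 0 to 0 and in the F test 2 to 2. The counts over all probes moved more. In Gata2 KD (1902) they were 1114 with only the groups compared, 1203 with scaling to the median, 2886 with slide as a block and 1072 to 1700 with single arrays left out. In Pu.1 KD (986) they were 223 with only the groups compared, 377 with scaling to the median, 1785 with the deposited log2 values, 1575 with trend and robust settings, 1875 with slide as a block and 281 to 824 with single arrays left out. Between the knockdowns (3524) they were 2259 with scaling to the median and 2206 to 3932 with single arrays left out, and in the F test (3298) 2056, 4996 with slide as a block and 1971 to 3368. The lowest counts came without Gata2 KD replicate 2 except in Pu.1 KD, where it was Pu.1 KD replicate 1. The cause was not tested.

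The replicate block gave 1172 called probes in Gata2 KD, 234 in Pu.1 KD and 2028 in the F test, and it changed no call of a member probe. The numbers were not taken as pairing, since deviations of same-numbered arrays correlated from -0.552 to 0.652. Those of arrays on the same slide correlated from -0.0408 to 0.719.

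Signal over background limits the HOX probes, and the Mecom probe that was not above background gave no fold.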

Other observations

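Genes of chromatin regulators of the HOX clusters were counted in the same way, where 5.20% of all tested probes were called in Gata2 KD and 2.70% in Pu.1 KD. Of 13 tested genes of MLL complexes, their partners and the CDX factors, 0 were called higher and 1 lower in Gata2 KD and the same numbers in Pu.1 KD. The gene was Aff4, a subunit gene of the super elongation complex, which changed by -0.65 (adjusted p 0.0343) and -0.72 (adjusted p 0.0367), and these calls were lost under 14 and 16 of 20 alternatives, among them leaving out any array except Pu.1 KD replicate 1 in the former and any array in the latter. Of 15 Polycomb genes, 0 were higher and 1 lower in Gata2 KD and 0 changed in Pu.1 KD by limma (2 with an unadjusted p under 0.05). Ezh2, the histone H3 lysine methyltransferase gene, fell by 0.65 in Gata2 KD (adjusted p 0.0319), a call that 12 of 20 alternatives lost, each omission of 1 array included (adjusted p up to 0.247), and differed by -0.80 in the direct comparison of Gata2 KD with Pu.1 KD (adjusted p 0.00731), which was lost only with scaling to the median (0.057). The MECOM relative Prdm16 and the corepressor genes Ctbp1 and Ctbp2 were not called in any comparison, and 0, 1 and 1 of the 3 had an unadjusted p under 0.05 in Gata2 KD, in Pu.1 KD and between the knockdowns. Ctbp2 between the knockdowns (adjusted p 0.0784) passed the threshold under 5 of 20 alternatives, with an adjusted p down to 0.0215.

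Of the marker lists of other lineages, 7 lymphoid genes held 0 calls in any comparison by limma and 0 unadjusted p values under 0.05. Erythroid genes held 0 higher and 2 lower of 7 in Gata2 KD and 2 higher and 0 lower in Pu.1 KD, and megakaryocyte genes 2 higher and 0 lower of 7 in Gata2 KD and 3 higher and 0 lower in Pu.1 KD. Over all tested probes 5.20% were called in Gata2 KD and 2.70% in Pu.1 KD.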
